A study of Caenorhabditis elegans with 8 samples.

Results

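A set of 9 genes for translation factors with germline or somatic paralogs was listed by name. The naming rule used no measured value, but the genes were chosen with earlier results of these data known. They were the eIF5A genes iff-1 and iff-2, the eIF4E genes ife-1, ife-2, ife-3, ife-4 and ife-5, the eIF4G gene ifg-1 and the elongation factor gene eef-2. Of these 9, 8 were measured among 21774 genes in the table, and all 8 passed the filter on low values, as did 11935 genes in all. ife-1 (F53A2.6) was not analysed here, and ife-2 was read at R04A9.4, the sequence name that the annotation gives for it, since the listed name R04A4.4 matched no gene. Polyadenylated RNA of the nematode Caenorhabditis elegans had been sequenced from sperm, oocytes, 1-cell embryos and 2-cell embryos, 2 libraries for each of 4 groups. The series follows the passage from oocyte to embryo, when the egg lives on maternal messages.

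The labels give every group the strain TX189(OMA-1::GFP) and 24 degrees Celsius. The protocol differs from this label: it takes sperm from males of a fog-2(q71) background, purified through nylon mesh and activated with Pronase, and hand-picked oocytes from N2 hermaphrodites. Embryos at the 1-cell stage came from a cell sorter, and how the 2-cell embryos were collected is not described. Strain and collection method therefore cannot be told apart from stage. Nothing says whether replicates were separate cultures, so p-values measure the spread between these libraries, which may be technical.

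Cap-dependent translation starts when eIF4E binds the cap of a messenger RNA and eIF4G joins it to the helicase eIF4A and to poly(A)-binding protein. eIF5A, the only known carrier of the modified amino acid hypusine, helps the ribosome to form peptide bonds that stall easily, and eEF2 moves the ribosome along the message. In C. elegans, iff-1 is known for its role in the germ line and iff-2 for its role in somatic tissues. Among the worm eIF4E proteins, IFE-3 and IFE-4 are known to bind the monomethyl cap, while IFE-1, IFE-2 and IFE-5 also accept the trimethyl cap that trans-splicing gives to many worm messages. IFE-1 and IFE-5 are the close relatives in this family, so reads of ife-5 could be shared in part with ife-1.

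Values are RPKM (read density scaled to gene length and library size) as deposited, so levels of different genes are compared per length. The sums of RPKM ranged from 642169 to 1013514 per library, and no counts or depths were given. RPKM times transcript length is the same for every gene with a single read. The most frequent such product in genes of low value put the depth of the sperm and embryo libraries at roughly 17.6 to 70.5 (in units of 1e6 reads). It held only 1.98% to 3.71% of those genes, and lengths were those of the longest annotated transcript, so depths and read numbers are rough. On that basis the lowest values rested on about 63.3 reads (iff-2, 2-cell replicate 2) and 31.9 reads (ife-4, sperm replicate 1). The oocyte columns showed no such clear peak and held 2.48% and 2.93% zeros, against 12.7% to 29.4% in the other libraries, and the part of this in the comparisons with oocytes was not tested. Fold changes are differences of log2(RPKM + 1), which understates changes of low genes. Calls needed both an adjusted p below 0.05 in limma and a log2 difference of at least 1 in size. At this rule 2740 genes differed between 1-cell embryos and oocytes, 2033 higher and 707 lower. That split was 947 and 960 after scaling to a common sum, 595 and 1271 with median-of-ratios scaling, 588 and 891 with quantile normalization, and 698 and 1160 after removal of the length trend. For 2-cell embryos against oocytes 1960 were higher and 617 lower, and under the same alternatives 993 and 744, 410 and 1202, 516 and 843, and 637 and 1018. For sperm against oocytes 4375 were higher and 2938 lower, but 3010 and 4682 with quantile normalization, and 3514 and 3646 after removal of the length trend. Median-of-ratios scaling moved the median log2 difference of all genes to 0.05 between 1-cell embryos and oocytes, where it was 0.35 in the values as deposited. Without oocyte replicate 1 or 2 the calls between 1-cell embryos and oocytes numbered 6 each, and without 1-cell replicate 1 they numbered 1671. Calls between 2-cell embryos and oocytes numbered 11 and 7 without oocyte replicate 1 and 2, and 857 and 303 without 2-cell replicate 1 and 2.

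The labelled cell types were checked against marker genes. The 6 sperm markers summed to 8013 and 8428 RPKM in sperm, and to between 0.709 and 62.8 RPKM in the other libraries. The 8 oocyte markers summed to 18963.5 and 20166.3 RPKM in oocytes and to 179 to 792 RPKM in sperm. Of 11 markers of muscle, intestine, yolk, gonad sheath, cuticle and neurons, 6 reached 1 RPKM in sperm and 3 in each of the other groups. The muscle myosin gene unc-54 stood at 239.8 and 215 RPKM in sperm, against 0.176 and 0.0855 RPKM in oocytes. All 11 summed to 190 to 205 RPKM in 1-cell and 203.0 to 203.6 RPKM in 2-cell embryos. Most of this was unc-119, at 184 to 204 RPKM in embryos. The other 10 somatic markers summed to 6.45 and 10.2 RPKM in replicate 1 of the 1-cell and 2-cell embryos. In replicate 2 they summed to 0.959 and 0.551 RPKM. The cuticle gene dpy-7 alone gave 3.28 and 6.13 RPKM of the replicate 1 sums. ges-1 in 1-cell and rab-3 in 2-cell embryos were higher in replicate 2.

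The eIF5A gene iff-1 (T05G5.10, chromosome III in WBcel235) was among the most abundant messages of the early embryo. Its level was 1143 and 624 RPKM in sperm, 415 and 345 RPKM in oocytes, 1716 and 2039.7 RPKM in 1-cell embryos, and 1311 and 1721 RPKM in 2-cell embryos. Both oocyte libraries lay below all other libraries, and the embryo libraries of both stages lay above both sperm libraries. The order of means was 1-cell embryo, 2-cell embryo, sperm and oocyte, and only the ranges of the embryo stages overlapped. The mean of 1-cell embryos exceeded the means of 99.7% of the genes tested, and that of oocytes 97.6%.

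iff-1 rose in 1-cell embryos to 1878 ± 229 RPKM, against 379.9 ± 49.2 RPKM in oocytes (mean ± SD, n = 2 each). The log2 difference was 2.30 (SE 0.39, adjusted p = 0.00972 in limma), and the median over all genes in this comparison was 0.35. RPKM are shares of a library, so a gain of this message and a loss of others cannot be told apart, and in bulk RNA neither can fewer cells of a type and less RNA per cell. In 2-cell embryos the mean was 1516 ± 289.6 RPKM and the log2 difference from oocytes was 1.99 (SE 0.39, adjusted p = 0.0158). iff-1 was 674 nucleotides long in its longest annotated transcript. Shorter transcripts tended to have larger log2 differences in each comparison with oocytes, sperm included. Over 6643 genes the slope per doubling of length was -0.62 log2 for 1-cell embryos, -0.52 for 2-cell embryos and -0.70 for sperm. Between 2-cell and 1-cell embryos the slope was 0.10. With the length trend removed the log2 difference of iff-1 from oocytes was 1.05 (adjusted p = 0.0874) in 1-cell embryos. In 2-cell embryos it was 0.85 (adjusted p = 0.158), so both calls ended. The 1-cell call also ended without oocyte replicate 1 (2.43, adjusted p = 0.0894) and without oocyte replicate 2 (2.17, adjusted p = 0.0994). The 2-cell call ended without oocyte replicate 1 (adjusted p = 0.115), oocyte replicate 2 (0.128), 2-cell replicate 1 (0.0506) or 2-cell replicate 2 (0.0751), with median-of-ratios scaling (1.19, adjusted p = 0.0961) and with no filter on low values (0.0553).

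Exons of iff-1 overlap those of a non-coding gene on the other strand (T05G5.17) over 138 nucleotides. The library steps described name no strand marking, so reads from this stretch cannot be assigned to one of them.

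The second eIF5A gene, iff-2 (F54C9.1, chromosome II), was highest in sperm and low elsewhere. Its level was 34.2 and 58.4 RPKM in sperm, 4.81 and 4.96 RPKM in oocytes, 12.6 and 3.73 RPKM in 1-cell embryos, and 16.8 and 2.09 RPKM in 2-cell embryos. Both sperm libraries lay above all others, and the other 3 groups overlapped. Within each embryo stage replicate 1 was the higher library. The summed somatic markers without unc-119 were 319.7 and 235.3 RPKM in sperm replicates 1 and 2, whereas iff-2 was higher in sperm replicate 2. In both embryo stages this sum, like iff-2, was higher in replicate 1. The part of somatic RNA in the iff-2 values was not tested.

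iff-2 rose in sperm to 46.3 ± 17.2 RPKM, against 4.89 ± 0.106 RPKM in oocytes (log2 difference 2.96, SE 0.83, adjusted p = 0.0146 in limma). iff-1 rose in the same comparison, to 883 ± 367 RPKM in sperm against 379.9 ± 49.2 RPKM in oocytes (log2 difference 1.16, SE 0.39, adjusted p = 0.0316). The iff-2 call ended without either sperm library (adjusted p = 0.0711 without replicate 1 and 0.143 without replicate 2), without oocyte replicate 1 (0.0590) or without oocyte replicate 2 (0.0578), and with no filter on low values (0.0510). The iff-1 call ended without sperm replicate 1 (log2 difference 0.72, adjusted p = 0.112), oocyte replicate 1 (0.0839), oocyte replicate 2 (0.158) or 1-cell replicate 2 (0.0501), with the length trend removed (0.14, adjusted p = 0.761), after scaling to a common sum (0.58, adjusted p = 0.219) and with quantile normalization (0.36, adjusted p = 0.397). It also ended with no filter on low values (adjusted p = 0.0748) and with the sperm and oocyte libraries fitted alone (0.0747).

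The eIF5A message was nearly all iff-1 in every library. iff-1 made up 97.1% and 91.4% of the summed RPKM of the pair in sperm, 98.9% and 98.6% in oocyte libraries, 99.3% and 99.8% in 1-cell embryos, and 98.7% and 99.9% in 2-cell embryos. The ratio of iff-1 to iff-2 was 33.4 and 10.7 in sperm, 86.2 and 69.6 in oocyte libraries, 136 and 547 in 1-cell embryos, and 77.9 and 823 in 2-cell embryos. Both sperm ratios lay below all 6 others, and the embryo replicates lay far apart. The mean log2 ratio was 4.21 ± 1.15 in sperm, 6.01 ± 0.21 in oocytes, 7.87 ± 1.25 in 1-cell embryos and 7.66 ± 2.06 in 2-cell embryos (SD, n = 2 each). An exact permutation test over all 8 libraries gave p = 0.152 (adjusted p = 0.152 over 7 pairs; the smallest p this design allows is 0.00952). The ratio tests treat the libraries as exchangeable and use no replicate block. Same-numbered libraries of the embryo stages deviated together (r = 0.877 across genes), which these tests count as spread within groups.

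**Figure D1:**
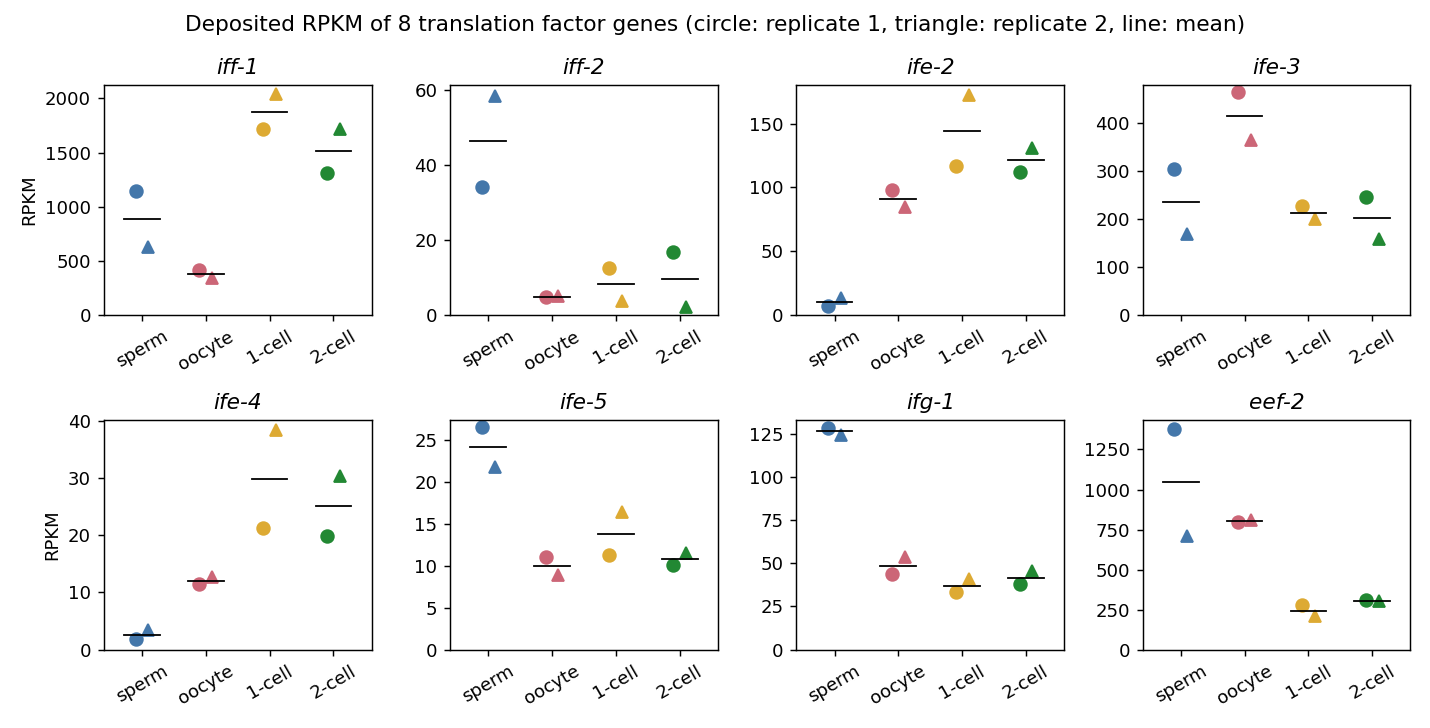
RPKM (vertical axes, linear, from 0) of the 8 measured genes in sperm, oocytes, 1-cell embryos and 2-cell embryos. Circles are replicate 1, triangles replicate 2, and lines the mean of 2 libraries. iff-1 is lowest in oocytes (415 and 345 RPKM), ife-2 and ife-4 are lowest in sperm, and iff-2, ife-5 and ifg-1 are highest there.

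Among the 4 measured eIF4E genes, ife-3 (B0348.6, chromosome V), the essential family member of the worm, was the most abundant in every library. Its level was 304 and 168 RPKM in sperm, 464 and 364 RPKM in oocytes, 227 and 200.0 RPKM in 1-cell embryos, and 246 and 158 RPKM in 2-cell embryos. Oocytes were highest, and the ranges of sperm and both embryo stages overlapped. The mean was 213 ± 18.8 RPKM in 1-cell embryos and 414 ± 70.8 RPKM in oocytes (log2 difference -0.94, SE 0.40, adjusted p = 0.129 in limma), so the difference was not called. In 2-cell embryos it was -1.06 (SE 0.40, adjusted p = 0.0977) from oocytes, and in sperm -0.86 (SE 0.40, adjusted p = 0.0980). Both embryo differences were called lower with median-of-ratios scaling (-1.64, adjusted p = 0.0195, for 1-cell and -1.85, adjusted p = 0.0135, for 2-cell embryos), with quantile normalization (-1.68 and -1.73), and once the length trend was taken out (-1.66, adjusted p = 0.0179, and -1.78, adjusted p = 0.0157). The sperm difference was called lower after removal of the length trend (-1.21, adjusted p = 0.0129), after scaling to a common sum (-1.43, adjusted p = 0.0171) and without sperm replicate 1 (-1.29, adjusted p = 0.0323). The gene idpp-2 on the other strand overlaps ife-3 over 51 nucleotides and did not exceed 0.414 RPKM in any library.

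ife-2 (R04A9.4, chromosome X) had the next highest level in oocytes and embryos and was far lower in sperm. It stood at 7.16 and 13.6 RPKM in sperm, 97.8 and 84.7 RPKM in oocytes, 117 and 172 RPKM in 1-cell embryos, and 112 and 131 RPKM in 2-cell embryos. Both sperm libraries lay far below all others, and both embryo stages, which overlapped, lay above both oocyte libraries. ife-2 fell in sperm to 10.4 ± 4.54 RPKM, against 91.2 ± 9.25 RPKM in oocytes (log2 difference -3.08, SE 0.39, adjusted p = 2.43e-04 in limma). This call held without each of the 8 libraries in turn, with log2 differences from -3.50 to -2.66. Between 1-cell embryos and oocytes the log2 difference was 0.64 (adjusted p = 0.282), and it was -0.05 with median-of-ratios scaling and -0.43 with the length trend removed.

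ife-4 (C05D9.5, chromosome X) is known from neurons and muscle, and its groups stood in the same order as those of ife-2, at lower levels. It stood at 1.86 and 3.39 RPKM in sperm, 11.5 and 12.7 RPKM in oocytes, 21.3 and 38.4 RPKM in 1-cell embryos, and 19.8 and 30.4 RPKM in 2-cell embryos. Sperm was lowest, oocytes came next, and the embryo stages overlapped above them. ife-4 fell in sperm to 2.62 ± 1.09 RPKM, against 12.1 ± 0.866 RPKM in oocytes (log2 difference -1.88, SE 0.43, adjusted p = 0.00543), and this call also held without each library in turn. In 1-cell embryos its log2 difference from oocytes was 1.18 (SE 0.43, adjusted p = 0.0828). It stood at 0.13 (adjusted p = 0.861) with the length trend removed.

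ife-5 (Y57A10A.30, chromosome II) was highest in sperm. It stood at 26.6 and 21.8 RPKM in sperm, 11.05 and 8.89 RPKM in oocytes, 11.3 and 16.4 RPKM in 1-cell embryos, and 10.1 and 11.6 RPKM in 2-cell embryos. Both sperm libraries were above all others, the range of 2-cell embryos overlapped those of oocytes and of 1-cell embryos, and the last 2 lay just apart. ife-5 rose in sperm to 24.2 ± 3.38 RPKM, against 9.97 ± 1.53 RPKM in oocytes (log2 difference 1.20, SE 0.35, adjusted p = 0.0163). The call ended without sperm replicate 1 (adjusted p = 0.0584), oocyte replicate 1 (0.0617) or oocyte replicate 2 (0.126), after scaling to a common sum (0.66, adjusted p = 0.121), with the length trend removed (0.53, adjusted p = 0.216), and with quantile normalization (0.87) or a pseudocount of 5 (0.96), where the difference was under 1.

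ife-3 made up a larger part of the summed messages of the 4 measured eIF4E genes, without ife-1, in all 4 gamete libraries than in any embryo library. It accounted for 89.5% and 81.3% of this sum in sperm, 79.4% and 77.4% in oocyte libraries, 60.2% and 46.8% in 1-cell embryos, and 63.4% and 47.6% in 2-cell embryos. ife-2 accounted for 2.11% and 6.57% in sperm, 16.7% and 18.0% in oocyte libraries, 31.1% and 40.3% in 1-cell embryos, and 28.9% and 39.7% in 2-cell embryos. ife-5 took 7.83% and 10.5% in sperm and at most 3.84% in any other library. The sum of the 4 genes was 339 and 207 RPKM in sperm, 584 and 470.0 RPKM in oocytes, 376 and 427 RPKM in 1-cell embryos, and 388 and 331 RPKM in 2-cell embryos.

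**Figure D2:**
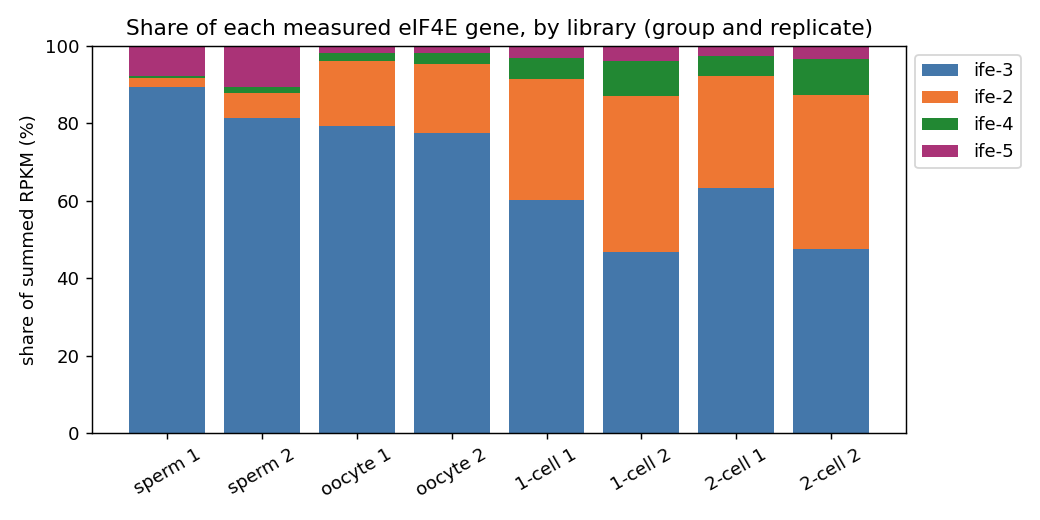
Share in percent (vertical axis) of ife-3, ife-2, ife-4 and ife-5 in the summed RPKM of these 4 genes, 1 bar for each library. ife-3 takes 81.3% or more in sperm and 77.4% or more in oocytes but 46.8% to 63.4% in embryos, where ife-2 takes 28.9% to 40.3%.

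Ratios of paralogs within a library do not depend on a scaling factor for that library, apart from the pseudocount. ife-2 and ife-5, which have transcripts of nearly equal length (835 and 848 nucleotides), showed the clearest switch. The ratio of ife-2 to ife-5 was 0.27 and 0.623 in sperm, 8.85 and 9.53 in oocyte libraries, 10.4 and 10.5 in 1-cell embryos, and 11.1 and 11.3 in 2-cell embryos. ife-5 was thus the higher of the pair in both sperm libraries and ife-2 in all 6 others. Reads of ife-5 could be shared in part with ife-1, and the part of this in the ratios to ife-5 was not tested. The mean log2 ratio was -1.20 ± 0.79 in sperm, 3.08 ± 0.057 in oocytes, 3.29 ± 0.037 in 1-cell embryos and 3.37 ± 0.032 in 2-cell embryos (SD, n = 2 each; exact permutation test over the 4 groups, p = 0.00952, the smallest this design allows; adjusted p = 0.0444 over 7 pairs).

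The ratio of ife-4 to ife-5 changed in the same way, at 0.0699 and 0.156 in sperm, 1.04 and 1.43 in oocyte libraries, 1.88 and 2.34 in 1-cell embryos, and 1.96 and 2.63 in 2-cell embryos (exact permutation p = 0.0190, adjusted p = 0.0444). ife-4 was lower than ife-5 in sperm and higher in every other library. The ratio of ife-2 to ife-3 was 0.0236 and 0.0808 in sperm, 0.211 and 0.233 in oocyte libraries, 0.517 and 0.861 in 1-cell embryos, and 0.455 and 0.833 in 2-cell embryos (exact permutation p = 0.0190, adjusted p = 0.0444). ife-3 stayed above ife-2 in all 8 libraries, by the least in embryos.

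For the other 3 eIF4E pairs the adjusted p lay at or above the threshold. Pairs of this family reuse the same genes and libraries, so their ratios are not separate results. The exact permutation test gave p = 0.0286 for ife-2 over ife-4 (adjusted p = 0.050), p = 0.0381 for ife-3 over ife-5 (adjusted p = 0.0533) and p = 0.0476 for ife-3 over ife-4 (adjusted p = 0.0556). The 3 passing pairs did not pass without either oocyte library or any 1 embryo library (adjusted p of 0.0533 to 0.133), nor with a pseudocount of 5 (0.0667). They passed without either sperm library (0.0444).

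**Figure D3:**
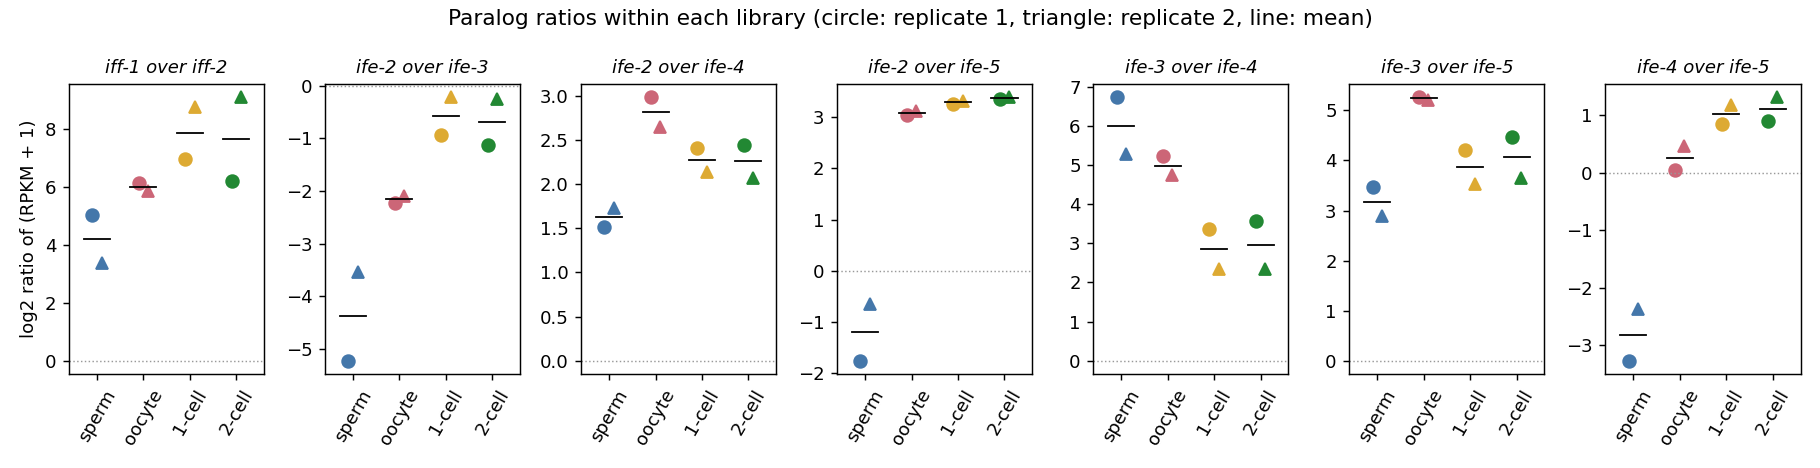
Log2 ratio of RPKM + 1 (vertical axes, each with its own range) for the 7 paralog pairs in sperm, oocytes, 1-cell embryos and 2-cell embryos. Circles are replicate 1, triangles replicate 2, lines the mean of 2 libraries, and the dotted line marks equal levels. The ratios of ife-2 and ife-4 to ife-5 lie below 0 in sperm and above 0 in every other library.

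ifg-1 (M110.4, chromosome II) encodes eIF4G, the scaffold that joins cap-bound eIF4E to other initiation factors, and it has no paralog among the 9 genes. Its level was 128 and 124 RPKM in sperm, 43.5 and 53.4 RPKM in oocytes, 33.2 and 40.7 RPKM in 1-cell embryos, and 37.8 and 45.7 RPKM in 2-cell embryos. Sperm was above all other libraries, and 2-cell embryos overlapped both oocytes and 1-cell embryos, which lay apart from each other. ifg-1 rose in sperm to 126 ± 2.80 RPKM, against 48.4 ± 6.97 RPKM in oocytes (log2 difference 1.37, SE 0.31, adjusted p = 0.00534). The call ended after scaling to a common sum (0.81, adjusted p = 0.0552) and without oocyte replicate 1 (1.23, adjusted p = 0.0616). In 1-cell embryos the log2 difference from oocytes was -0.38 (SE 0.31, adjusted p = 0.433). The sperm libraries, in which ifg-1, ife-5 and iff-2 were highest and ife-2 and ife-4 lowest, also held the unc-54 level given above. The part of such somatic RNA in these results was not tested. ife-3 exceeded ifg-1 in RPKM in every library. The table gives 1 value for the 5 annotated transcripts of ifg-1. Its exons overlap those of dab-1 on the same strand over 11 nucleotides, and dab-1 had 42.7 and 87.0 RPKM in sperm and 304 and 433 RPKM in oocytes.

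eef-2 (F25H5.4, chromosome I) encodes eEF2, the translocase of elongation. Its level was 1377 and 711 RPKM in sperm, 795 and 809.7 RPKM in oocytes, 277 and 207 RPKM in 1-cell embryos, and 309.5 and 303 RPKM in 2-cell embryos. All 4 embryo libraries lay below all oocyte and sperm libraries. eef-2 fell in 1-cell embryos to 242 ± 49.2 RPKM, against 802 ± 10.6 RPKM in oocytes (log2 difference -1.74, SE 0.39, adjusted p = 0.0198), and in 2-cell embryos to 306 ± 4.92 RPKM (-1.39, SE 0.39, adjusted p = 0.0402). Both calls held with the length trend removed (-1.38, adjusted p = 0.0270, and -1.20, adjusted p = 0.0441). The 1-cell call ended without oocyte replicate 1 (adjusted p = 0.130), oocyte replicate 2 (0.135) or 1-cell replicate 2 (0.0823), and with no filter on low values (0.0577). The 2-cell call ended without oocyte replicate 1 (0.194), oocyte replicate 2 (0.202), 2-cell replicate 1 (0.134) or 2-cell replicate 2 (0.131), and with no filter (0.0992). Sperm averaged 1044 ± 471 RPKM and the oocyte range lay within the sperm range (log2 difference 0.30, adjusted p = 0.526, but -0.27 after scaling to a common sum and -0.68 with quantile normalization).

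iff-1 and eef-2, both acting in elongation, thus stood in opposite order in gametes and embryos. iff-1 was below eef-2 in both oocyte libraries and in both sperm libraries, and above it in all 4 embryo libraries. This order was not tested, and the longest transcripts differ in length (674 nucleotides for iff-1 and 2800 for eef-2). With the length trend removed, the log2 differences of 1-cell embryos from oocytes were 1.05 for iff-1, not called, and -1.38 for eef-2.

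In all, limma called 2 of the 8 measured genes between 1-cell embryos and oocytes (iff-1 higher, eef-2 lower), where it called 23.0% of all genes tested, 17.0% higher and 5.92% lower. It called the same 2 genes between 2-cell embryos and oocytes, where 21.6% of all genes were called, 16.4% higher and 5.17% lower. These comparisons share the oocyte libraries. Between sperm and oocytes 6 of 8 were called (iff-1, iff-2, ife-5 and ifg-1 higher, ife-2 and ife-4 lower), against 61.3% of all genes (36.7% higher, 24.6% lower), so this share is close to the background. Between 2-cell and 1-cell embryos 0 of 8 were called, against 0.0168% of all genes. An unadjusted p under 0.05 in limma was reached by 0 of the 8 and by 78 of the 11935 genes tested. With so few over all genes, the 0 of 8 says little about these genes. The log2 differences at that step ran from -0.32 for iff-1 to 0.35 for eef-2.

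**Figure D4:**
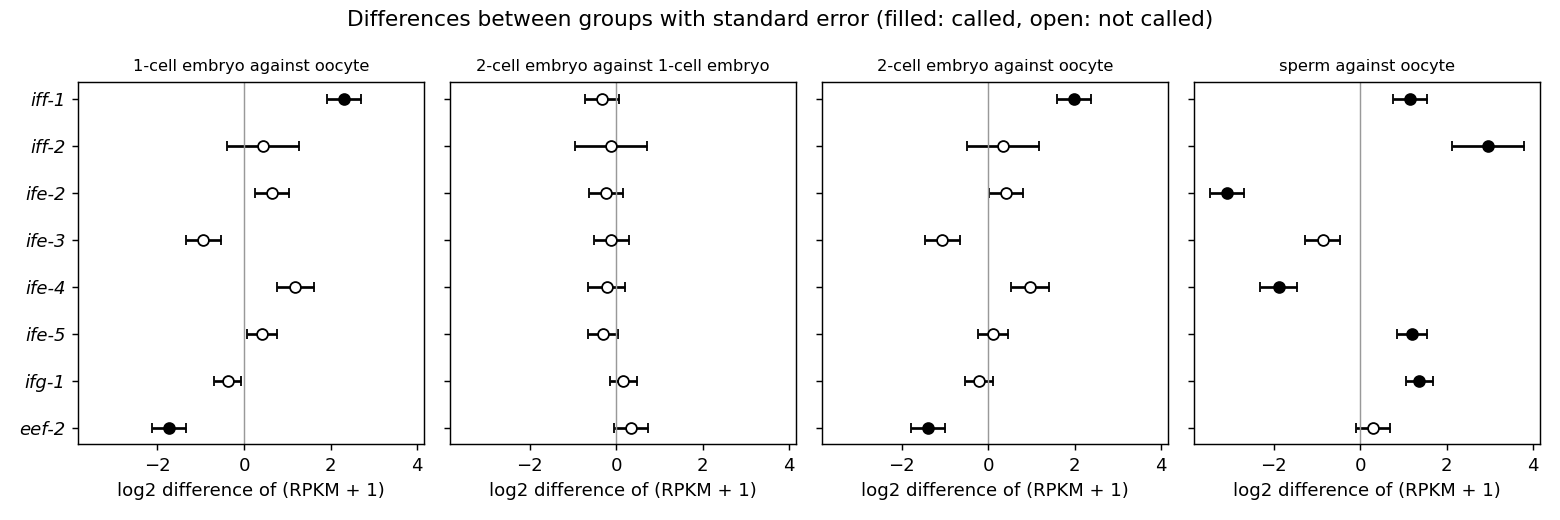
Log2 difference of RPKM + 1 (horizontal axes) with its standard error (bars) for the 8 genes in the 4 comparisons, each of 2 against 2 libraries in the fit of all 8. Filled points are called. iff-1 (2.30) and eef-2 (-1.74) are the filled points between 1-cell embryos and oocytes, and none is filled between 2-cell and 1-cell embryos.

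The other translation factors were taken from 5 lists with 45 genes, of which 39 were found by symbol and tested. Between 1-cell embryos and oocytes 3 were higher and 5 lower, beside 17.0% higher and 5.92% lower among all genes tested. Their median log2 difference was 0.09, beside 0.35 over all genes. dohh-1, the hydroxylase that completes hypusine on eIF5A, rose to 88.8 ± 11.1 RPKM in 1-cell embryos, against 22.4 ± 1.87 RPKM in oocytes (log2 difference 1.94, SE 0.38, adjusted p = 0.0139). The start codon selection factor eif-1 (log2 difference 1.40) and the eIF3 subunit gene eif-3.F (1.51) were the other higher genes. dhps-1, the synthase that starts hypusine on eIF5A, was not called here. It stood at 75.6 ± 2.51 RPKM in 1-cell embryos and 60.1 ± 6.94 RPKM in oocytes (log2 difference 0.33, adjusted p = 0.702 in limma). The calls of dohh-1 (1.07), eif-1 (0.066) and eif-3.F (0.96) ended with the length trend removed, and those of eif-1 (0.71) and eif-3.F (0.82) also with median-of-ratios scaling.

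Lower in 1-cell embryos were the elongation factor gene eef-1A.1, at 1612 ± 328 RPKM against 6782 ± 1891 RPKM in oocytes (log2 difference -2.06, SE 0.46, adjusted p = 0.0200), and the eIF3 subunit gene eif-3.B (-2.08). eef-1A.1 and its paralog eef-1A.2 are so alike that reads may be shared between them. The poly(A)-binding protein gene pab-1 (-1.69) and the eIF4E-binding repressor gene ifet-1 (-1.49, adjusted p = 0.0480) were also lower. With the length trend removed eef-1A.1, eif-3.B and pab-1 kept their calls and ifet-1 did not (-1.03, adjusted p = 0.0773). The pab-1 call ended with no filter on low values (adjusted p = 0.0904) and with the compared groups alone (0.0690), as did that of eef-1A.1 (0.116 and 0.0559). The count of 8 called factors was 3 with no filter, and 5 with quantile normalization or the compared groups alone. None of the 39 was called in this comparison without oocyte replicate 1 or without oocyte replicate 2 (0 in each), and 3 and 6 were without 1-cell replicate 1 and 2.

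By role, 1 of 13 start codon and ternary complex genes was higher and 1 lower in 1-cell embryos than in oocytes, as were 1 and 1 of 12 eIF3 subunits and 1 and 1 of 7 elongation genes. Of 4 eIF4 partners and poly(A)-binding genes 0 were higher and 2 lower, and of 3 termination and recycling genes 0 were called. These counts stand beside the same 17.0% and 5.92% of all genes, and lists of this size hold few genes. Between 2-cell embryos and oocytes 4 of 39 were higher (dohh-1 at 1.78, the eIF2B subunit gene eif-2Bdelta at 1.41, eif-3.F at 1.38 and eif-1 at 1.36) and 1 lower (eif-3.B at -1.53), beside 16.4% and 5.17% of all genes. With the length trend removed the calls of dohh-1 (0.94), eif-3.F (0.78) and eif-1 (0.14) ended. The count of 5 was 2 with no filter on low values, after scaling to a common sum or with quantile normalization, 8 with median-of-ratios scaling, and 0 without either oocyte library or either 2-cell library.

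In sperm 2 of the 39 were higher and 13 lower than in oocytes, beside 36.7% higher and 24.6% lower among all genes tested. Their median log2 difference was -0.41, beside 0.16 over all genes. The higher ones were pab-1, at 633 ± 216 RPKM in sperm and 154 ± 30.0 RPKM in oocytes (log2 difference 2.00, adjusted p = 0.00539), and the eIF3 subunit gene egl-45 (1.37, adjusted p = 0.0249). The egl-45 call ended after scaling to a common sum (0.81) and without sperm replicate 1 (adjusted p = 0.134), oocyte replicate 1 (0.0834) or oocyte replicate 2 (0.126). Of 13 start codon and ternary complex genes 7 were lower, among them eif-6 (-2.15) and eif-2A (-2.10, which ended without sperm replicate 2, adjusted p = 0.0615). The eIF3 subunit gene eif-3.K fell by 1.99 on the log2 scale. dhps-1 fell in sperm to 15.2 ± 10.7 RPKM, against 60.1 ± 6.94 RPKM in oocytes (-2.08, SE 0.48, adjusted p = 0.00545). The other hypusine gene, dohh-1, was not called in sperm, where its mean was the higher. It stood at 42.7 ± 19.1 RPKM in sperm and 22.4 ± 1.87 RPKM in oocytes (log2 difference 0.83, adjusted p = 0.0890 in limma).

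**Figure D5:**
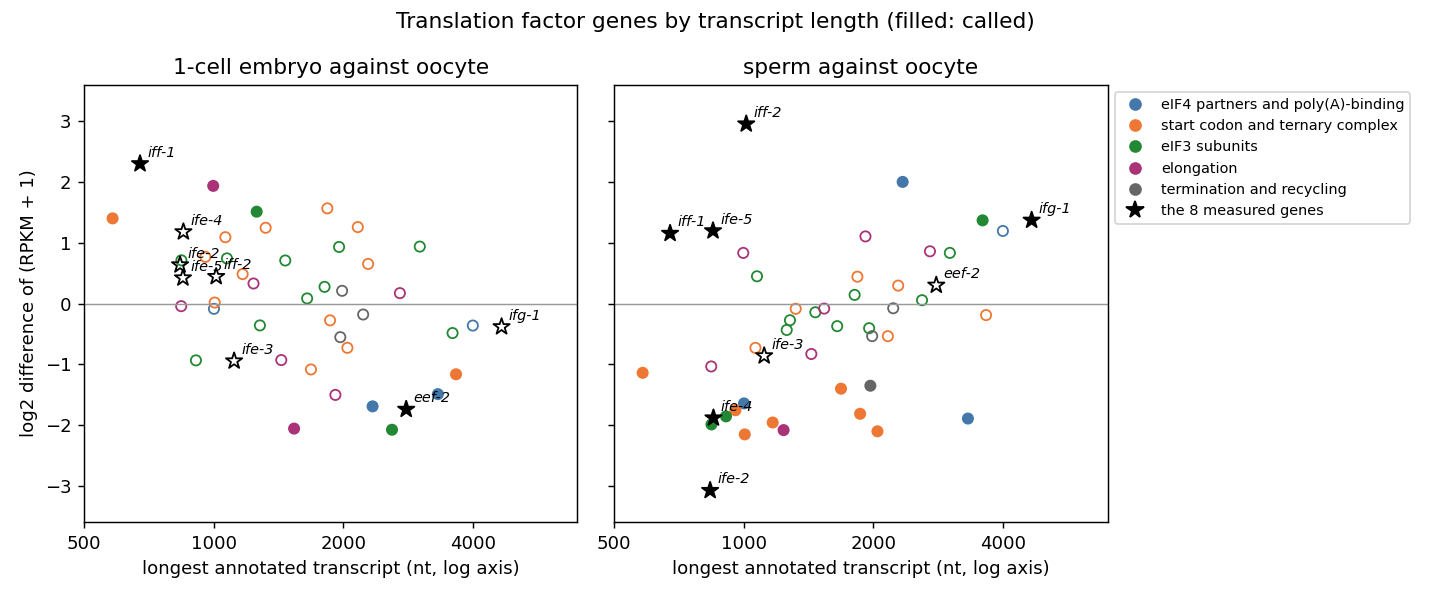
Log2 difference of RPKM + 1 (vertical axes) against the longest annotated transcript in nucleotides (log axis) for 39 listed translation factors (circles, coloured by role) and the 8 measured genes (stars), for 1-cell embryos against oocytes and sperm against oocytes. Filled symbols are called. iff-1 (674 nucleotides) is the highest in 1-cell embryos, and ife-2 (835 nucleotides) the lowest in sperm.

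Genes whose pattern over the 8 libraries was most like each measured gene were sought among the 6862 tested genes that averaged 10 RPKM or more. The measure was Pearson's r of log2(RPKM + 1), which is a description here because libraries of a group share their source. dhs-12 (r = 0.993) and C05C10.7 (0.988) were closest to iff-1, and ost-1 (0.988) and smc-6 (0.984) to iff-2. ost-1 shared the gap between embryo replicates seen for iff-2, with 5.25 and 0.410 RPKM in 1-cell and 9.28 and 0.268 RPKM in 2-cell embryos for replicates 1 and 2. C27C12.4 (0.997) and F42F12.3 (0.994) were closest to ife-2, and F53E10.1 (0.994) and gsto-2 (0.994) to ife-4. For ife-3 they were ubxn-2 (0.974) and nmt-1 (0.974), and for ife-5 ZK849.1 (0.953) and rps-13 (0.952). hphd-1 (0.986) and glct-6 (0.985) were closest to ifg-1, and Y48A6B.10 (0.980) and Y79H2A.3 (0.978) to eef-2.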

How the data were processed

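Polyadenylated RNA was fragmented, reverse transcribed with random hexamers and sequenced, per the labels' protocols. The deposited table holds RPKM computed by the authors for 21774 genes, 1 column per library. Reads were aligned with BWA, per the submitters' processing notes; its version, the genome build, annotation, counter and read total are not given in the sources used here. Names, chromosomes, lengths and exon overlaps come from the WBcel235 annotation, matched by sequence name for 18746 genes (947 of the 11935 tested have no match). No coordinates or sequences are printed.

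Samples were grouped by title. Genes reaching 1 RPKM in 2 or more of the 8 libraries entered limma 3.58.1 (R 4.3.3) on log2(RPKM + 1), in one model of 4 groups with a variance trend, 4 residual degrees of freedom and two-sided tests. Benjamini-Hochberg adjustment covered all genes of a comparison. Paralog ratios were tested by an exact permutation test of F over the 4 groups, adjusted over 7 pairs (11 were planned, before ife-1 proved to have no measured value here). The length trend was removed by subtracting from each library a spline of its deviations on log2 transcript length. Both tests were run on simulated data with independent normal noise. Such data lack the shared deviations of same-numbered embryo libraries, so these runs do not show how the tests behave here. Alternatives were other pseudocounts, filters, scalings, the length removal, other samples in the fit, a replicate block and leaving out each library.

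The members and lists were chosen with earlier results of these data known. Named were the 9 listed genes, up to 4 called genes per direction and comparison from the 5 lists (averaging 10 RPKM or more in whichever group was higher), and for each measured gene the 2 genes with the most similar pattern. No counting intervals were computed, since only RPKM were used here.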

Additional observations from a re-analysis of the deposited data

How the results depend on the processing

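Counts over all genes and over the 8 measured genes depended on the oocyte libraries and on scaling. Leaving out each library in turn gave 6 to 2655 calls between 1-cell embryos and oocytes (2740 with all), 7 to 2970 between 2-cell embryos and oocytes (2577), 0 to 2 between 2-cell and 1-cell embryos (2) and 6003 to 7515 between sperm and oocytes (7313). Of the measured genes 0 to 2, 0 to 2, 0 to 0 and 2 to 6 were then called. Where a library is left out, the lone library of its group is assumed to vary like the other groups. With no filter on low values the counts over all genes were 1454 (1-cell against oocyte), 1222 (2-cell against oocyte) and 1 (2-cell against 1-cell), and 1 and 0 measured genes were called for 1-cell and 2-cell embryos against oocytes. Quantile normalization gave 1479 and 1359 calls for 1-cell and 2-cell embryos against oocytes, and for 2-cell embryos against oocytes median-of-ratios scaling gave 1612 and the length removal 1655. Between 2-cell and 1-cell embryos a common sum gave 6 calls, and a pseudocount of 5, median-of-ratios scaling, the length removal and the compared groups alone gave 0 each.

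Adjusted p of the paralog ratios without 1 library ran from 0.0444 to 0.133 for ife-2 over ife-3, 0.0444 to 0.0667 for ife-2 over ife-5, 0.0444 to 0.133 for ife-4 over ife-5, 0.050 to 0.147 for ife-2 over ife-4, 0.0533 to 0.147 for ife-3 over ife-4, 0.0533 to 0.167 for ife-3 over ife-5 and 0.0762 to 0.343 for iff-1 over iff-2. A pseudocount of 5 gave 0.0667 for ife-2 over ife-3, ife-2 over ife-5 and ife-4 over ife-5. The length removal gave 0.0444 for ife-2 over ife-4, ife-3 over ife-4 and ife-3 over ife-5, and quantile normalization gave 0.0333 for ife-3 over ife-4 but 0.429 for ife-2 over ife-4 and 0.122 for ife-3 over ife-5. The cause was not tested.

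Of 552 recomputed fold changes of the measured genes 465 kept direction and side of the threshold, 42 lost a call, 12 gained one and 33 changed sign, none of these last from a called value. Between 1-cell embryos and oocytes median-of-ratios scaling gave -0.15 for iff-2, -0.055 for ife-2 and -0.22 for ife-5, and the length removal -0.40 for iff-2, -0.43 for ife-2, -0.63 for ife-5 and 0.18 for ifg-1. Between 2-cell embryos and oocytes these were -0.34 for iff-2, -0.38 for ife-2 and -0.61 for ife-5 (median of ratios), -0.12, -0.10 and -0.27 (quantile), -0.49, -0.58, -0.86, 0.14 for ifg-1 and -0.0074 for ife-4 (length removal), and -0.22 for ife-5 (common sum). Between 2-cell and 1-cell embryos iff-2 was at 0.0064 with a pseudocount of 5 and ifg-1 at -0.038 with the length removal. Between sperm and oocytes eef-2 was at -0.27 with a common sum and -0.68 with quantile normalization. Without 1 library iff-2 ran from -0.32 to 1.21 (1-cell against oocyte), -1.37 to 1.15 (2-cell against 1-cell) and -0.93 to 1.60 (2-cell against oocyte), and between 2-cell and 1-cell embryos ife-2 from -0.50 to 0.049, ife-3 from -0.43 to 0.21 and ife-4 from -0.62 to 0.20. ife-5 ran from -0.029 to 0.26 (2-cell against oocyte) and eef-2 from -0.17 to 0.78 (sperm against oocyte).

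Same-numbered libraries deviated together between the embryo stages (r = 0.877 across genes) and not between 1-cell embryos and oocytes (-0.170), and nothing in the labels pairs them. With the replicate block limma called 3230, 2, 3162 and 7573 genes in the 1-cell against oocyte, 2-cell against 1-cell, 2-cell against oocyte and sperm against oocyte comparisons. The block added the calls of ife-4 between 1-cell embryos and oocytes (adjusted p = 0.0430) and of ife-3 between 2-cell embryos and oocytes (0.0480), and took the listed factors called in the second of these to 9, against 5 without it. With the oocyte numbers crossed, an alternative chosen after seeing the data, the block gave 3579 calls between 1-cell embryos and oocytes. Among listed factors 382 values were recomputed, namely fold changes of the named genes and counts of called factors. Of these 275 were unchanged, by direction and side of the threshold for fold changes and by similar size for counts. A further 103 lost a call or fell in count, and 4 counts rose. The named genes were picked because they were called, so none of them could gain a call.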

Other observations

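Poly(A)-binding protein and eEF1A genes also come in pairs, and their members were set side by side here after their values were seen. pab-1 averaged 633 ± 216 RPKM in sperm, 154 ± 30.0 RPKM in oocytes, 49.9 ± 25.8 RPKM in 1-cell embryos and 60.5 ± 11.6 RPKM in 2-cell embryos (SD, n = 2 each). Its paralog pab-2 averaged 23.6 ± 6.28 RPKM in sperm, 9.56 ± 0.0415 RPKM in oocytes, 8.34 ± 6.28 RPKM in 1-cell embryos and 10.4 ± 7.64 RPKM in 2-cell embryos, and none of its differences was called. eef-1A.2 averaged 93.2 ± 33.8 RPKM in sperm, 42.3 ± 13.0 RPKM in oocytes, 16.9 ± 13.99 RPKM in 1-cell embryos and 21.7 ± 17.9 RPKM in 2-cell embryos, far below eef-1A.1, and its sequence is close enough to eef-1A.1 that reads may be shared.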
